A study of Homo sapiens with 8 samples.

Results

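The epidermal growth factor (EGF) receptor family and its ligands were measured on gene expression arrays of the human colorectal carcinoma line HCT-116. The set held 10 genes: the receptors EGFR, ERBB2, ERBB3 and ERBB4, the ligands AREG, EREG, TGFA, HBEGF and BTC, and the receptor inhibitor ERRFI1. Every non-control probe with one of these gene names in the scanner files was taken, which gave 18 of the 50599 probes. Of these, 16 probes of 9 genes entered the tests, because in 1 group or more both arrays read them well above background. Over the whole array 28677 probes met this condition. Both ERBB4 probes were not well above background on any of the 8 arrays, so ERBB4, a receptor for neuregulins as well as for some of these ligands, was not tested.

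All cells were grown in DMEM with 10% FBS, and each of 4 groups had 2 arrays, which the series describes as biological replicates. WT was the untreated parental line. WT+NU6102 was the same line after 24 h in 20 µM NU6102, an inhibitor of the cell cycle kinases CDK1 and CDK2. CDK2 KO was an untreated HCT-116 line with the CDK2 gene deleted, bought together with the parental line. R50 was a resistant line that, by the labels, was kept in 50 µM NU6102. Whether CDK2 KO is a single clone and how many colonies R50 came from are not given in the sources used here. The comparisons ask how acute inhibition, loss of CDK2 and the resistant line in inhibitor differ from the parental cells and, for R50, from the knockout. Because WT and CDK2 KO were untreated, resistance and the presence of the inhibitor cannot be told apart in R50.

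EGF-family ligands are made as membrane-bound precursors that proteases cut free. They bind the extracellular part of the receptors, which then pair and phosphorylate each other and signal through RAS, ERK and PI3-kinase. ERBB2 has no known ligand of its own and acts as a partner, ERBB3 has little kinase activity and signals mainly through such partners, and ERRFI1 (MIG6) binds the active kinase and restrains it. AREG and EREG are ligands commonly made by colorectal cancer cells.

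Signals were log2 values with each array's 75th percentile subtracted, so that 0 is that percentile and 1 unit is a doubling. Between 32376 and 36206 of 58717 non-control spots were well above background on each array, no spot was saturated, and the 2 arrays of a group correlated at 0.994 to 0.996 over the tested probes. Slide 1 carried the 4 arrays of CDK2 KO and R50, and slide 2 the 4 arrays of WT and WT+NU6102. Slide and group therefore cannot be told apart when either line is compared with WT or with WT+NU6102. The NU6102 treatment and R50 against CDK2 KO were compared within a slide. The CDK2 probe (chr12:56365789-56365848, hg19) read -0.78 and -0.77 in WT and -1.58 and -1.53 in CDK2 KO. Its signal was lower in the knockout (log2 fold change -0.78, limma adjusted p = 0.000271), but where the deletion lies relative to this probe is not given in the sources used here. All 6 epithelial markers were well above background on all 8 arrays. Of the markers of other cell types, 1 of 5 fibroblast, 2 of 4 leukocyte and 1 of 3 endothelial genes were. The fibroblast genes COL1A2, COL3A1 and LUM and the endothelial gene KDR were above it on none. Their part in the results was not tested, and in such bulk RNA fewer expressing cells and less RNA per cell cannot be told apart.

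Each gene is represented by its brightest tested probe unless another is named. By these probes the 3 ligands AREG, EREG and HBEGF and the inhibitor ERRFI1 carried the largest differences that were measured above background in every group. With NU6102 for 24 h, all 3 ligands were higher and ERRFI1, ERBB2 and ERBB3 lower than in WT. In CDK2 KO, AREG alone moved by 2-fold or more. In R50, AREG and EREG were about 3-fold lower than in WT. Over all 4 groups, 6 of 9 genes differed by limma's moderated F-test at an adjusted p under 0.001, the threshold of the study's methods, against 21.1% of all tested probes. They were AREG, EREG, HBEGF, ERRFI1, ERBB2 and ERBB3. This count was 2 without either WT+NU6102 array, 3 without either CDK2 KO array and 4 when any 1 of the other arrays was left out.

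**Figure D1:**
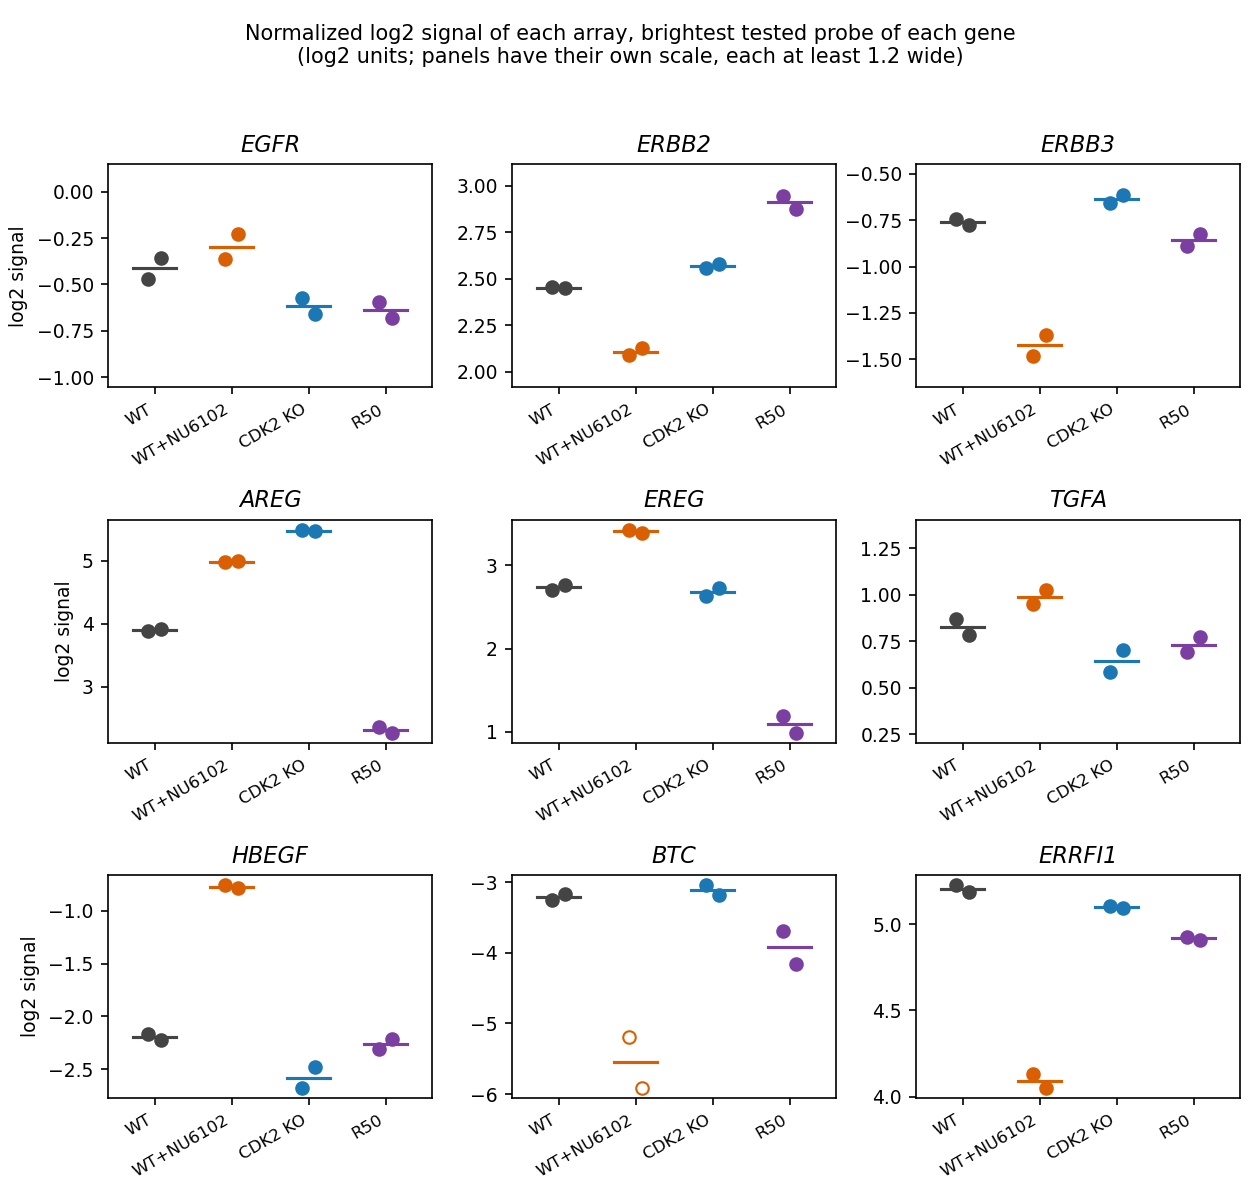
Normalized log2 signal (vertical axis, 75th percentile of the array at 0) of the brightest tested probe of 9 genes, with 1 point for each of the 8 arrays and a line at the mean of each group of 2. Open points mark a group with no array well above background, which is the case for BTC in WT+NU6102. AREG and EREG were lowest on both R50 arrays, and HBEGF highest on both WT+NU6102 arrays.

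Among the receptors, EGFR, which binds all 5 ligands measured here, gave no call with its brightest probe. This probe (chr7:55274841-55274900, hg19) lies near the 3' end of the full-length transcript NM_005228. It read -0.47 and -0.36 in WT, -0.36 and -0.23 in WT+NU6102, -0.57 and -0.66 in CDK2 KO, and -0.60 and -0.68 in R50. The WT+NU6102 arrays overlapped with those of WT, while both CDK2 KO and both R50 arrays were below both WT arrays. The differences from WT were 0.12 with NU6102 (95% interval -0.07 to 0.31, limma adjusted p = 0.262), -0.20 in CDK2 KO (-0.39 to -0.01, adjusted p = 0.101) and -0.22 in R50 (-0.41 to -0.03, adjusted p = 0.0917) on the log2 scale.

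The other EGFR probes match shorter transcripts, and the second of them did not follow the first. It lies at chr7:55224558-55224617 and is assigned to NM_201283, a short EGFR transcript that ends before the kinase part. It read -2.88 and -3.14 in WT, -3.41 and -3.32 in WT+NU6102, -4.48 and -4.53 in CDK2 KO, and -2.84 and -2.89 in R50. Both CDK2 KO arrays stood more than 1 log2 unit below the other 6. The probe was 2.82-fold lower in CDK2 KO than in WT (log2 fold change -1.50, 95% interval -1.73 to -1.26, adjusted p = 0.000365) and 3.11-fold higher in R50 than in CDK2 KO (log2 fold change 1.64, 1.40 to 1.87, adjusted p = 0.000245). With NU6102 it was slightly lower (log2 fold change -0.36, adjusted p = 0.0272). The third probe (chr7:55231446-55231505), of the short transcript NM_201282, ranged from -3.70 to -2.86 over the 8 arrays and was higher in R50 than in CDK2 KO (log2 fold change 0.55, adjusted p = 0.0412). No difference between WT and R50 was called for any of the 3 EGFR probes.

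ERBB2, the receptor without a ligand, was lower with NU6102 and higher in R50, by less than 1.5-fold in each case. Its brightest probe (chr17:37884829-37884888) read 2.45 and 2.45 in WT, 2.09 and 2.13 in WT+NU6102, 2.56 and 2.58 in CDK2 KO, and 2.94 and 2.88 in R50. The 4 groups did not overlap. The log2 fold change was -0.35 with NU6102 (95% interval -0.46 to -0.23, adjusted p = 0.00262) and 0.46 in R50 against WT (0.34 to 0.58, adjusted p = 0.0034). R50 was also above CDK2 KO (0.34, 0.22 to 0.46, adjusted p = 0.0042), and the difference between CDK2 KO and WT was not called (0.12, -0.00 to 0.24, adjusted p = 0.119). A second ERBB2 probe (chr17:37851136-37851195), designed on the record AB025286, was lower with NU6102 as well (log2 fold change -0.81, adjusted p = 0.0035). It gave no call in R50 against WT (-0.14, adjusted p = 0.45), and both R50 calls were lost with the median over the 2 probes, at log2 fold changes of 0.16 against WT (adjusted p = 0.215) and 0.25 against CDK2 KO (adjusted p = 0.061).

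ERBB3, the receptor for neuregulins that lacks strong kinase activity, was lower with NU6102 at 2 of its 3 probes. The brightest one (chr12:56479217-56479276) belongs to the short transcript NM_001005915. Its last 30 bases are shown because they hold 12 bases, in capitals, that also occur in 5 probes of 5 other genes on the array, and whether these add to its signal was not tested:
ERBB3 probe, last 30 bases: ggccaggcctgatggcttACACCTGTAATC
This probe read -0.75 and -0.78 in WT, -1.48 and -1.37 in WT+NU6102, -0.66 and -0.62 in CDK2 KO, and -0.89 and -0.82 in R50. Both WT+NU6102 arrays were the lowest of the 8, and the log2 fold change against WT was -0.66 (95% interval -0.81 to -0.52, adjusted p = 0.000624). A second probe, on the full-length transcript NM_001982 (chr12:56496160-56496219), was also lower with NU6102 (log2 fold change -0.69, adjusted p = 0.00086).

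Against WT, the second ERBB3 probe gave calls in CDK2 KO and R50 that the other probes did not. It read -1.07 and -1.22 in WT, -0.46 and -0.45 in CDK2 KO, and -0.60 and -0.54 in R50. Both lines were above both WT arrays, by 0.69 in CDK2 KO (95% interval 0.52 to 0.86, adjusted p = 0.00155) and 0.58 in R50 (0.41 to 0.75, adjusted p = 0.00489). The short-transcript probe gave no call in either comparison (0.12, adjusted p = 0.177, and -0.09, adjusted p = 0.313). It was lower in R50 than in CDK2 KO (-0.22, adjusted p = 0.0382), a call lost when any 1 array of WT, CDK2 KO or R50 was left out (adjusted p between 0.0658 and 0.152) and in a fit of slide 1 alone (adjusted p = 0.0779). The third ERBB3 probe (chr12:56482380-56482439) lies on NM_001982 like the second, had a wider spread and gave no call in the 4 comparisons. Its log2 fold change was -0.68 with NU6102 (95% interval -1.36 to -0.01, adjusted p = 0.0929). Against WT it was 0.12 in CDK2 KO (-0.56 to 0.79, adjusted p = 0.782) and -0.14 in R50 (-0.82 to 0.53, adjusted p = 0.754).

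AREG, which encodes amphiregulin, had the widest range of the members measured above background in every group. Its brightest probe (chr4:75320518-75320577) read 3.89 and 3.92 in WT, 4.98 and 4.999 in WT+NU6102, 5.49 and 5.47 in CDK2 KO, and 2.36 and 2.27 in R50. The 2 arrays of each group lay within 0.1 of each other, and the 4 groups did not overlap. AREG was 2.12-fold higher with NU6102 (log2 fold change 1.08, 95% interval 0.96 to 1.21, adjusted p = 0.000149) and 2.99-fold higher in CDK2 KO than in WT (1.58, 1.45 to 1.71, adjusted p = 5.21e-05). In R50 it was 3.004-fold lower than in WT (-1.59, -1.72 to -1.46, adjusted p = 0.000142) and 8.97-fold lower than in CDK2 KO (-3.17, -3.29 to -3.04, adjusted p = 1.05e-05).

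The second AREG probe gave the same 4 calls in the same directions, with log2 fold changes of 1.19, 1.71, -1.46 and -3.17. It is shown because it ends in the coding part of the transcript, where 1 of its reading frames is open throughout, whereas the brightest probe lies further 3':
AREG probe: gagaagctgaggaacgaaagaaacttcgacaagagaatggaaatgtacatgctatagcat
Whether the AREG probes also match another place in the genome was not tested. AREG was lower in WT+NU6102 than in CDK2 KO (log2 fold change -0.49, adjusted p = 0.000664), a comparison across slides in which 53.2% of all tested probes were called.

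EREG, which encodes epiregulin, lies 66.45 kb from AREG by the hg19 positions of their brightest probes and shared its low level in R50 but not its high level in CDK2 KO. Its probe (chr4:75254009-75254068) read 2.71 and 2.77 in WT, 3.42 and 3.39 in WT+NU6102, 2.63 and 2.73 in CDK2 KO, and 1.19 and 0.99 in R50. The CDK2 KO arrays overlapped with those of WT, the WT+NU6102 arrays were the highest and the R50 arrays the lowest. EREG was 1.59-fold higher with NU6102 (log2 fold change 0.67, 95% interval 0.46 to 0.87, adjusted p = 0.00172). In R50 it was 3.12-fold lower than in WT (-1.64, -1.85 to -1.44, adjusted p = 0.000403) and 2.999-fold lower than in CDK2 KO (-1.58, -1.79 to -1.38, adjusted p = 0.000176). The difference between CDK2 KO and WT was -0.06 (-0.26 to 0.15, adjusted p = 0.632).

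Because these neighbouring genes moved together in R50 and apart in CDK2 KO, the 250 bases before their RefSeq start sites are shown (GRCh38.p14, plus strand, EREG at chr4:74364895-74365144 and AREG at chr4:74444886-74445135). Capitals mark matches, on either strand, to a TATA box (TATAAA), a cAMP response element (TGACGTCA), an AP-1 site (TGANTCA) or a GC box (GGGCGG, which reads CCGCCC on the other strand):
EREG promoter: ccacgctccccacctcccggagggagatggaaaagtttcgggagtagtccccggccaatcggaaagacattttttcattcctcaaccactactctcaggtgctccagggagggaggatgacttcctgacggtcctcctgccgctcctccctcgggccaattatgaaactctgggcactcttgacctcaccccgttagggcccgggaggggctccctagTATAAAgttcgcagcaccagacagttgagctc
AREG promoter: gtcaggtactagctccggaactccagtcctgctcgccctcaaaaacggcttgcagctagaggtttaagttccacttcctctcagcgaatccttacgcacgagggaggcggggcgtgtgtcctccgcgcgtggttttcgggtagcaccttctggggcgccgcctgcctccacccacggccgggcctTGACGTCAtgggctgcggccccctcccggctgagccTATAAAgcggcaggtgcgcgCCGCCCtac
Both windows held TATAAA, starting 32 bases before the EREG start and 29 bases before the AREG start. The AREG window also held TGACGTCA, 65 bases before the start, and a GC box at 9 bases, and neither window held TGANTCA. Of 35116 promoter windows of this length, 10.7% held TATAAA, 1.65% TGACGTCA, 6.57% TGANTCA and 42.6% GGGCGG. A match is a description of the letters and not of a bound site.

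HBEGF, the heparin-binding ligand, stood out in the acute treatment. Its probe (chr5:139713052-139713111) read -2.17 and -2.22 in WT, -0.76 and -0.78 in WT+NU6102, -2.68 and -2.48 in CDK2 KO, and -2.31 and -2.21 in R50. The WT+NU6102 arrays were more than 1 unit above the other 6, and the R50 arrays overlapped with those of WT. HBEGF was 2.68-fold higher with NU6102 (log2 fold change 1.42, 95% interval 1.23 to 1.62, adjusted p = 0.000194) and did not differ by a call between R50 and WT (-0.07, -0.26 to 0.13, adjusted p = 0.602). Lower signal in CDK2 KO than in WT (-0.39, -0.59 to -0.19, adjusted p = 0.017) was a weaker call. It was lost without WT array 1 (-0.36, adjusted p = 0.0845), WT array 2 (-0.41, adjusted p = 0.0583) or CDK2 KO array 1 (-0.29, adjusted p = 0.0592), and the difference was -0.21 with normexp background correction (adjusted p = 0.0351). HBEGF was higher in R50 than in CDK2 KO (0.32, 0.12 to 0.52, adjusted p = 0.028), but this call was lost when any 1 array other than CDK2 KO array 2 was left out (adjusted p between 0.0509 and 0.112) and within slide 1 alone (adjusted p = 0.094).

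BTC, which encodes betacellulin, was the one tested member with a group in which no array was well above background, and that group was WT+NU6102. It entered the tests through the other groups, where it was higher, so its differences from WT+NU6102 are a description. Its probe (chr4:75675838-75675897) lies 355.261 kb from the AREG probe on the same chromosome. It read -3.25 and -3.18 in WT, -3.05 and -3.18 in CDK2 KO, and -3.69 and -4.16 in R50. With NU6102 it read -5.18 and -5.91, and neither array was well above background. Set against the lowest signal well above background on those arrays, BTC was at least 3.39-fold higher in WT than in WT+NU6102 (limma adjusted p = 0.00135). The fitted difference was -2.33 in log2 units, and only -0.68 with normexp background correction (adjusted p = 0.000459), which compresses dim signals. R50 was below WT on both arrays, without a call (-0.71, 95% interval -1.37 to -0.05, adjusted p = 0.117).

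TGFA, which encodes transforming growth factor alpha, depended on the probe. The brightest probe (chr2:70683472-70683531) read 0.87 and 0.79 in WT, 0.95 and 1.03 in WT+NU6102, 0.58 and 0.70 in CDK2 KO, and 0.69 and 0.77 in R50, and gave no call in the 4 comparisons. The second probe (chr2:70675319-70675378), near the 3' end of the same transcript NM_003236, read -3.24 and -3.41 in WT, -2.65 and -2.36 in WT+NU6102, -3.63 and -3.59 in CDK2 KO, and -2.98 and -2.72 in R50. At this probe both WT+NU6102 arrays were the highest, and TGFA was higher with NU6102 (log2 fold change 0.82, 95% interval 0.49 to 1.15, adjusted p = 0.00468) and in R50 than in CDK2 KO (0.76, 0.43 to 1.09, adjusted p = 0.00888). The corresponding log2 fold changes of the brightest probe were 0.16 (-0.01 to 0.33) and 0.09 (-0.08 to 0.26).

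ERRFI1, the inhibitor, went down with NU6102 while AREG, EREG and HBEGF went up. Its probe (chr1:8072208-8072267) read 5.22 and 5.18 in WT, 4.13 and 4.05 in WT+NU6102, 5.10 and 5.09 in CDK2 KO, and 4.93 and 4.91 in R50. The 4 groups did not overlap, and the WT+NU6102 arrays were the lowest. ERRFI1 was 2.16-fold lower with NU6102 (log2 fold change -1.11, 95% interval -1.24 to -0.99, adjusted p = 0.00014). The smaller difference in R50 against WT (-0.29, -0.41 to -0.16, adjusted p = 0.0152) was not called without WT array 1, WT array 2, R50 array 1 or R50 array 2 (log2 fold changes of -0.27, -0.31, -0.30 and -0.28, adjusted p between 0.0577 and 0.0772) or with quantile normalization (-0.21, adjusted p = 0.0629). ERRFI1 in R50 against CDK2 KO (-0.18, adjusted p = 0.0404) was no longer called when any 1 of the 8 arrays was left out (adjusted p between 0.0507 and 0.143), and with quantile normalization the log2 fold change was -0.10 (adjusted p = 0.255).

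**Figure D2:**
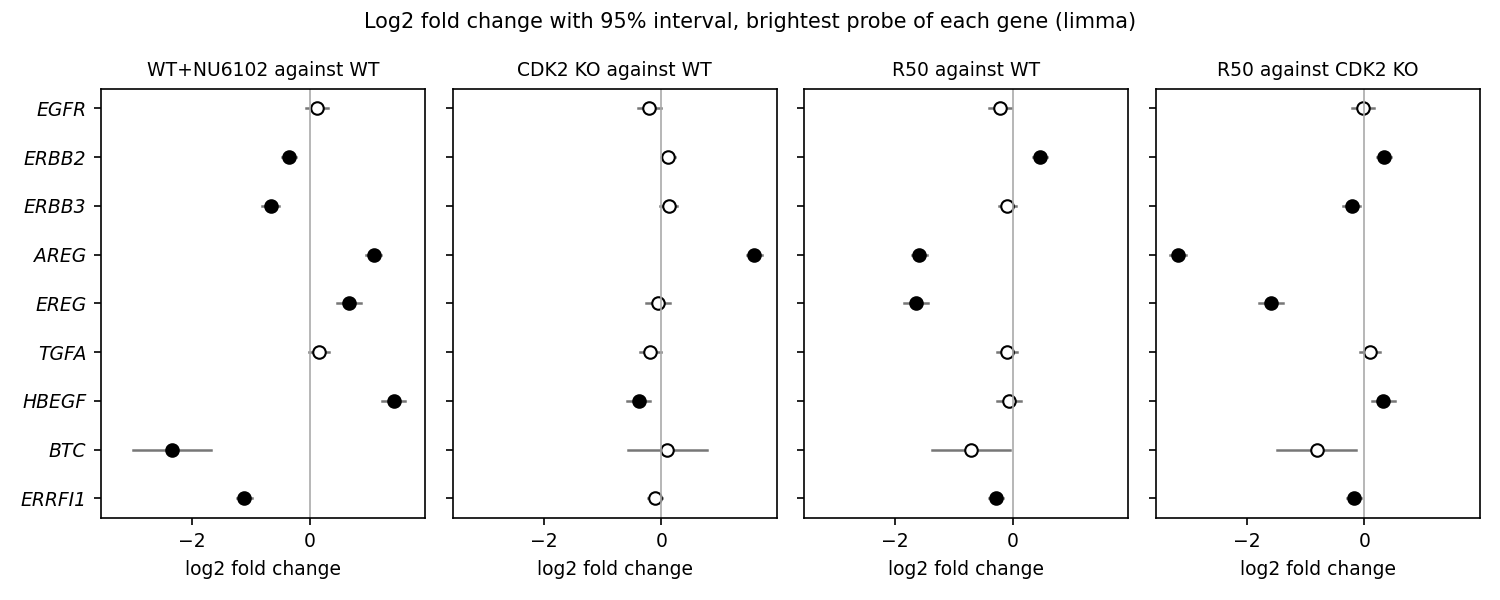
Log2 fold change (horizontal axis) with its 95% interval for the brightest tested probe of 9 genes in 4 comparisons. Filled points have a limma adjusted p under 0.05. Filled points are most frequent in WT+NU6102 against WT, with 7 of 9, and rarest in CDK2 KO against WT, with 2 of 9.

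Counted by comparison, 7 of 9 genes were called with NU6102 against WT, where 44.7% of all tested probes were called at an adjusted p under 0.05. AREG, EREG and HBEGF were higher, as were 23.6% of all tested probes, and ERBB2, ERBB3, BTC and ERRFI1 were lower, as were 21.1%. Of these, 4 genes passed a 2-fold change, AREG, HBEGF, BTC and ERRFI1, against 6.49% of all tested probes. BTC is in both counts, but it entered the tests through groups where it was higher, so its call is a description. The median log2 fold change of the 9 genes was 0.12, and of all tested probes 0.03.

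In CDK2 KO against WT, 2 of 9 genes were called, against 31.1% of all tested probes. They were AREG, which was higher (15.8% of all tested probes), and HBEGF, which was lower (15.3%), and only AREG passed 2-fold, against 4.74%. The median of the 9 genes was -0.06, and of all tested probes 0.01. In R50 against WT, 4 of 9 genes were called, against 22.6%. ERBB2 was higher (9.78% of all tested probes), and AREG, EREG and ERRFI1 were lower (12.8%), with AREG and EREG past 2-fold against 2.59%. The median of the 9 genes was -0.22, and of all tested probes -0.04.

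In R50 against CDK2 KO, 6 of 9 genes were called, against 34.4% of all tested probes. ERBB2 and HBEGF were higher (15.2%), and ERBB3, EREG, AREG and ERRFI1 lower (19.3%). AREG and EREG passed 2-fold, against 5.2%. Of these 6 calls, those of ERBB2, EREG and AREG were made within slide 1 alone. The count over the 9 genes was 3 without WT array 1, WT array 2, R50 array 1, R50 array 2 or CDK2 KO array 1. It was 4 without CDK2 KO array 2 and 5 without either WT+NU6102 array. The count of 5 includes a gene outside the 6, as HBEGF and ERRFI1 both lost their calls there. The comparisons against WT share its 2 arrays, so their counts are not independent of each other.

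**Figure D3:**
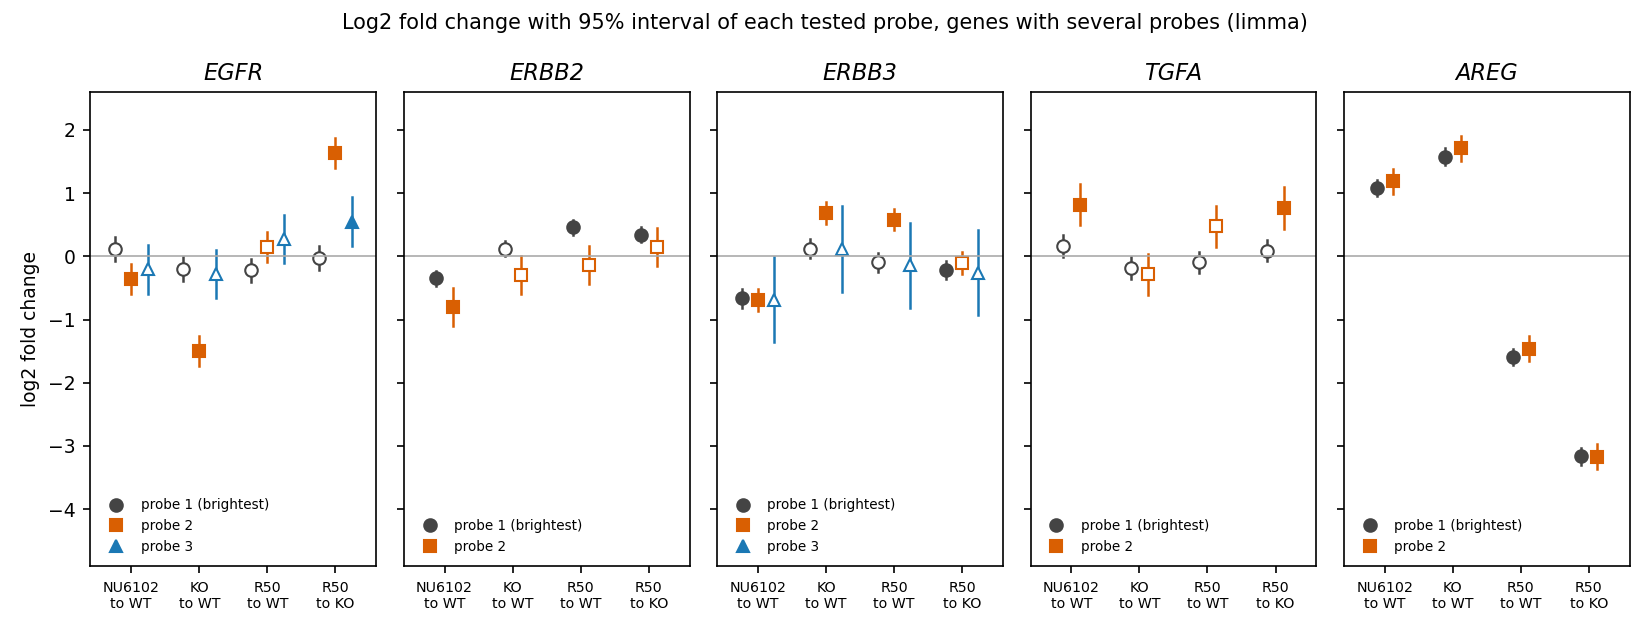
Log2 fold change (vertical axis) with its 95% interval for each tested probe of the genes with several probes, in 4 comparisons (NU6102 stands for WT+NU6102, KO for CDK2 KO). Probe 1 is the brightest, and filled symbols have a limma adjusted p under 0.05. The AREG probes coincide, whereas the second EGFR probe stood at -1.50 in CDK2 KO against WT and the first at -0.20.

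The order of the 4 group means was not shared among the ligands. AREG ran from CDK2 KO through WT+NU6102 and WT down to R50, and every neighbouring pair differed at an adjusted p under 0.05. EREG ran from WT+NU6102 through WT and CDK2 KO to R50, and WT and CDK2 KO did not differ beyond their spread (adjusted p = 0.632). HBEGF ran from WT+NU6102 through WT and R50 to CDK2 KO, with WT and R50 not called apart (adjusted p = 0.602). TGFA had the same order as HBEGF at its brightest probe, but no neighbouring pair was called. BTC, ERBB2, ERBB3 and ERRFI1 had WT+NU6102 at the bottom, and each of them differed there from the next group up. That group was WT for ERBB2 and R50 for the others. ERBB2 was the only member with R50 at the top among the brightest probes. Over the 9 genes, 13 of 27 neighbouring pairs differed.

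By their labels R50 and WT+NU6102 were both exposed to the inhibitor, at different doses and for different times, and their arrays lay on different slides, so slide and group cannot be told apart here either. In this comparison, which was added after the values were seen, all 9 tested genes were called by their brightest probes, against 51.4% of all tested probes. By these probes 5 genes were higher and 4 lower in WT+NU6102. BTC is among the lower ones, and its call is a description, as no WT+NU6102 array was well above background. AREG was 2.67 log2 units higher in WT+NU6102 (adjusted p = 1.3e-05), EREG 2.31 (adjusted p = 2.93e-05) and HBEGF 1.49 (adjusted p = 8.06e-05). TGFA (0.26, adjusted p = 0.024) and EGFR (0.34, adjusted p = 0.0124) were higher by much less at their brightest probes. The other EGFR probes were called in the opposite direction, the second at -0.50 (adjusted p = 0.00668) and the third at -0.48 (adjusted p = 0.0447). At the second TGFA probe there was no call (0.35, adjusted p = 0.0765). ERBB2 was lower in WT+NU6102 than in R50 (log2 fold change -0.80, adjusted p = 0.000105), and so was ERBB3 (-0.57, adjusted p = 0.000637).

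For the 3 members with the widest range of group means among those well above background on all arrays, the most similar profiles among 13960 named genes were sought, by the root mean square (RMS) difference of centred log2 signals over the 8 arrays. ZNF845, which encodes a zinc finger protein, was closest to AREG (RMS difference 0.19, r = 0.989), followed by ZNF430 (0.37) and ZNF480 (0.45). TSPAN5, a tetraspanin, was closest to EREG (0.19, r = 0.976), and STEAP1 (0.26) was also near it. USP31 (0.10, r = 0.992), the kinase gene CLK3 (0.10) and the semaphorin gene SEMA7A (0.12) were closest to HBEGF. The correlations are over 8 arrays of 4 groups and describe these arrays only.

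Beyond the members, 6 lists of pathway genes were counted, with 90 tested genes. With NU6102, 23 were higher and 31 lower than in WT, a total of 54, where 44.7% of all tested probes were called. In CDK2 KO 18 were higher and 21 lower (31.1% of all tested probes), in R50 against WT 18 and 8 (22.6%), and in R50 against CDK2 KO 25 and 14 (34.4%). The CDK2 KO count of 39 fell to 20 without WT array 1, 24 without WT array 2, 17 without CDK2 KO array 1 and 22 without CDK2 KO array 2. The R50 against WT count of 26 fell to 10 without either WT array, 13 without R50 array 1 and 11 without R50 array 2.

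Among other EGF-family ligands, 2 of 6 were tested, and EGF, EPGN, NRG1 and NRG3 were not. NRG2, a neuregulin that binds ERBB3 and ERBB4, was well above background on the WT and CDK2 KO arrays alone. It was at least 2.20-fold higher in WT than in WT+NU6102 and at least 2.03-fold higher in WT than in R50. NRG2 entered the tests through the arrays where it was high, so these values are a description. The neuregulin NRG4 gave no call. Of 10 tested genes for shedding and processing of ligands, 3 were called with NU6102, 5 in CDK2 KO, 3 in R50 against WT and 3 in R50 against CDK2 KO, where 44.7%, 31.1%, 22.6% and 34.4% of all tested probes were. ADAM10, a sheddase of BTC, was lower with NU6102 (log2 fold change -0.36) and higher in R50 (0.42), and ADAM17, the main sheddase of AREG, EREG, HBEGF and TGFA and named here for that role, had log2 fold changes of -0.12 with NU6102, -0.16 in CDK2 KO and -0.06 in R50, of which the second was called (adjusted p = 0.0459). TIMP3, an inhibitor of ADAM17 named here for its size after the values were seen, was well above background on the CDK2 KO arrays alone and at least 5.76-fold higher there than in WT. It entered the tests through these arrays, so this value is a description.

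Receptor down-regulation and turnover genes numbered 23, of which 18 were called with NU6102, 7 higher and 11 lower, where 23.6% of all tested probes were higher and 21.1% lower. In CDK2 KO 12 of the 23 were called (31.1% of all tested probes), in R50 against WT 9 (22.6%) and in R50 against CDK2 KO 11 (34.4%). CBLC, a ubiquitin ligase of the CBL family that acts on EGFR, read 0.75 and 0.85 in WT, -0.80 and -0.75 in WT+NU6102, -0.05 and -0.04 in CDK2 KO, and 1.02 and 0.999 in R50. It was thus lower with NU6102 (log2 fold change -1.58, adjusted p = 8.38e-05) and in CDK2 KO (-0.85, adjusted p = 0.000379) and slightly higher in R50 (0.21, adjusted p = 0.0465). SH3KBP1, a CBL-binding adaptor, and EPN1, an endocytic adaptor, were also lower with NU6102 and in CDK2 KO and higher in R50, with log2 fold changes of -0.40, -0.84 and 0.29 for SH3KBP1 and -0.16, -0.89 and 0.46 for EPN1. TOB1 was higher in all 3.

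Of 21 adaptors and proximal signalling genes, 8 were called with NU6102, 7 in CDK2 KO, 4 in R50 against WT and 6 in R50 against CDK2 KO, each near the 44.7%, 31.1%, 22.6% and 34.4% of all tested probes. PIK3R1, a regulatory subunit of PI3-kinase named for its size after the values were seen, was higher in R50 than in WT (log2 fold change 1.85, adjusted p = 0.000891). Of 14 genes of the RAS and ERK cascade, 10 were called with NU6102 against 44.7% of all tested probes, 7 higher and 3 lower, with HRAS at 0.94 and MAPK3, which encodes ERK1, at -0.63.

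Of 20 transcripts known to be induced by EGF receptor signalling, 14 were called with NU6102, 4 higher and 10 lower, where 23.6% of all tested probes were higher and 21.1% lower. The median log2 fold change of the 20 was -0.16, and of all tested probes 0.03. The immediate early gene FOS, named with EGR1 and DUSP6 for its size after the values were seen, read 2.65 and 2.78 in WT and -0.27 and -0.08 in WT+NU6102 (log2 fold change -2.89, adjusted p = 8.38e-05). EGR1 (-1.16, adjusted p = 0.00146) and the ERK phosphatase gene DUSP6 (-1.001, adjusted p = 0.000271) were lower too. The 4 called higher were DUSP4 (0.74, adjusted p = 0.000387), SPRED2 (0.54, adjusted p = 0.00232), FOSL1 (0.50, adjusted p = 0.00169) and PHLDA1. PHLDA1 rose in all 3 comparisons against WT (0.52, 0.42 and 0.94). In CDK2 KO, 4 of these 20 transcripts were higher and 6 lower, and in R50 against WT 3 were higher and 3 lower, where 31.1% and 22.6% of all tested probes were called.

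**Figure D4:**
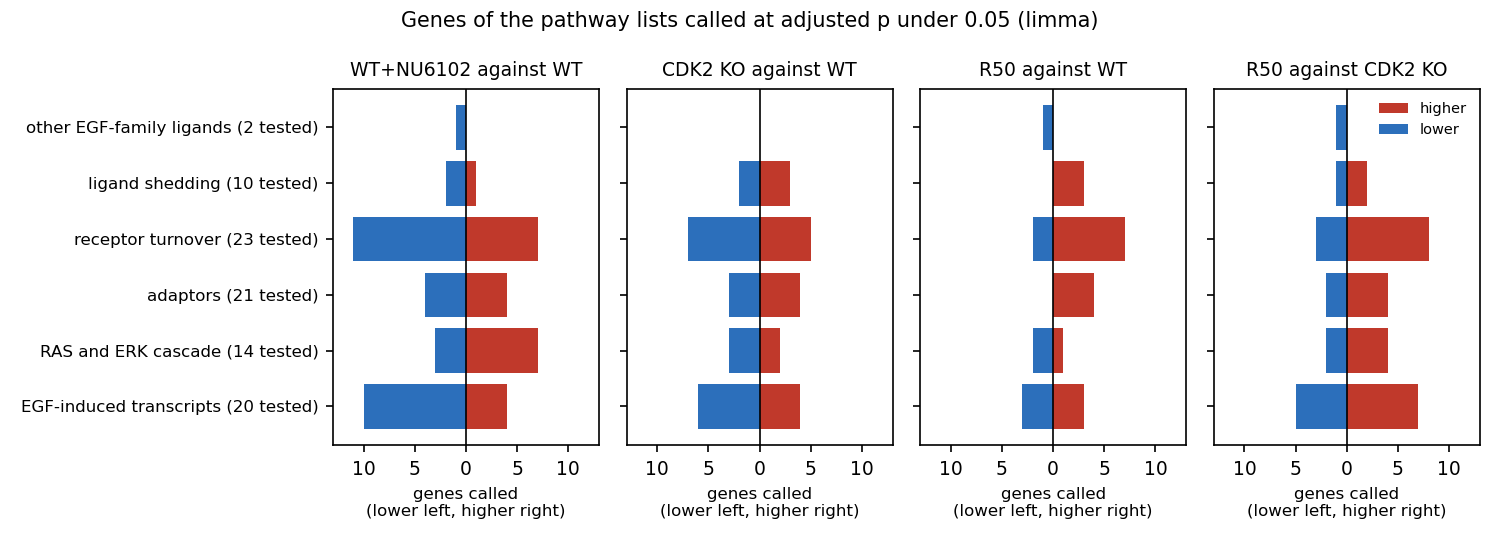
Number of genes (horizontal axis) of 6 pathway lists called lower (left of 0) or higher (right of 0) at a limma adjusted p under 0.05 in 4 comparisons, with the number tested beside each list. With NU6102, 10 of the 20 transcripts known to be induced by EGF receptor signalling were lower and 4 higher.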

How the data were processed

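In all, 8 RNA samples of HCT-116 cells were hybridised by the authors to one-colour Agilent 8 × 60k arrays. The deposited scanner files (Agilent Feature Extraction 11.5.1.1, per the labels) give the intensity of each spot, background-subtracted by that software. The deposited value table holds the authors' log2 values of the same arrays in which every probe's median over the arrays is 0, and served as an alternative.

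From the intensity (gProcessedSignal), log2 was taken, each array's 75th percentile over non-control spots subtracted, outlier spots dropped and spots of a probe averaged. A probe was tested if well above background on both arrays of 1 group. One limma 3.58.1 fit (R 4.3.3) over 4 groups gave contrasts, 95% intervals and Benjamini-Hochberg adjusted p-values over all 28677 tested probes. The scripts were tested on simulated data. Arrays carry no counts, and 2 per group limit the precision.

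Members and lists were chosen with earlier results of these data known. Each member is named and given by its brightest probe, and of each list at most the genes called in most comparisons, not all of which are. ADAM17, TIMP3, PIK3R1, FOS, EGR1, DUSP6, DUSP4, SPRED2 and FOSL1 were named after their values were seen, whether or not that rule holds them. Of the 18 probes, 17 matched a RefSeq record of the same symbol. Probe positions are hg19, from the scanner files of slide 2. Alternatives changed background correction, normalization, filter, prior variance, probe summary, threshold, test and arrays used.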

Additional observations from a re-analysis of the deposited data

How the results depend on the processing

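The 7 calls with NU6102 against WT stayed between 6 and 9 in number under every alternative but a 2-fold minimum. That minimum left 4, 1, 2 and 2 genes called in WT+NU6102 against WT, CDK2 KO against WT, R50 against WT and R50 against CDK2 KO, and 4 in WT+NU6102 against R50. Without a filter on dim probes, CDK2 KO against WT had 1 call, R50 against CDK2 KO 3, and the F-test 3, and the pathway lists had 17 in CDK2 KO against WT and 10 in R50 against WT. CDK2 KO against WT had 4 calls with a prior variance that follows intensity, with the median over probes and with the methods' t-test at an unadjusted p under 0.05. After Benjamini-Hochberg adjustment, the methods' t-test called 1 gene in CDK2 KO against WT, 0 in R50 against WT (4 at an unadjusted p under 0.05) and 2 in R50 against CDK2 KO. Within slide 1, R50 against CDK2 KO had 3. The cause of these shifts was not tested.

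Leaving out 1 array at a time gave 7 to 7 genes with NU6102, 1 to 2 in CDK2 KO, 3 to 4 in R50 against WT, 3 to 5 in R50 against CDK2 KO, 7 to 9 in WT+NU6102 against R50 and 2 to 4 by the F-test. Pathway genes numbered 39 to 51, 17 to 34, 10 to 20 and 28 to 39 in the same 4 comparisons.

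Directions reversed for 9 alternative values, none of a difference called at the brightest probe. With the median over probes, 3 of them were calls themselves: EGFR at -0.36 with NU6102 (adjusted p = 0.0357) and 0.78 in R50 against CDK2 KO (adjusted p = 0.00341), and ERBB3 at 0.29 in R50 against WT (adjusted p = 0.0358). EGFR read 0.15 in R50 against WT, ERBB2 -0.089 in CDK2 KO and TGFA 0.19 in R50 against WT. EGFR in R50 against CDK2 KO ranged from -0.064 to 0.021 when 1 array was left out, above 0 without CDK2 KO array 1 and without R50 array 2, and HBEGF in R50 against WT was 0.0094 with normexp. Of 316 alternative values of called member differences, 273 kept direction and call and 43 lost the call. Of 274 such values of differences that were not called, 12 gained a call in the same direction. WT+NU6102 against R50 was left out of these counts. There EGFR was called higher in WT+NU6102 at its brightest probe (log2 fold change 0.34, limma adjusted p = 0.0124). Its other probes were called lower, at -0.50 (adjusted p = 0.00668) and -0.48 (adjusted p = 0.0447). The direction of this called EGFR difference thus depended on the probe.

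Replicate numbers did not pair the arrays: deviations of same-numbered arrays correlated between -0.028 and 0.0452. With the replicate number as a block, the 4 comparisons called 7, 2, 4 and 7 genes and the F-test 4. The methods' one-way ANOVA also called 4. BTC and ERBB4 are limited by signal over background.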
